A study of Phalaenopsis x intermedia with 4 samples.

Results

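P. Intermedia is the F1 hybrid of 2 moth orchids, P. aphrodite (Pa) and P. equestris (Pe). The SNPs described here are the positions at which Pa and Pe were each called homozygous, for different bases. They were chosen from the parents' calls and from the number of missing calls: 2 base alleles, chromosome 1 or 3 to 19, and no call (N) in at most 20% of the 92 plant columns. Of the 115866 entries of the genotype table, 1739 met this rule. Within the same limits 4088 SNPs were left, so that these parental-difference SNPs were the most frequent class of parental calls, ahead of 1581 SNPs with 1 parent heterozygous, 584 with both parents homozygous for the same base and 15 with both heterozygous. A parent lacked a call at the other 169.

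Leaf DNA of the progeny and of both parents was cut with Hinp1I or ApeK1, each paired with HaeIII, and sequenced as 4 libraries of pooled plants, with 2 plates per enzyme pair. The deposited table merges all libraries and gives 1 genotype letter per plant and SNP, for 90 progeny and 1 column each for Pa and Pe. All plants are of a single cross without treatment groups, and the parents serve as the reference. Read depth is not given, so the reads behind each call are unknown. Over all SNPs, 30 progeny had 69.3% to 96.3% of calls missing and the other 60, named well called below, had 0.803% to 40.3%. At the SNPs described here the means were 19.1% ± 10.8 (SD) in the 30 and 5.18% ± 4.58 in the 60. The limit on missing calls thus kept SNPs at which many of the 30 had calls. Heterozygous shares per plant and by class of parental calls, and the overall share of Pe bases among homozygous calls, are given for both sets. Other results are for all 90 progeny unless stated.

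Genotyping-by-sequencing reads only the ends of restriction fragments, so SNPs within about a read length of each other are typed by the same reads. An F1 plant receives 1 chromosome set from each parent. At a position where the parents are homozygous for different bases, every F1 plant is therefore predicted to be heterozygous, and such SNPs carry no segregation of their own. Each parent is represented by a single column, so these SNPs are differences between 2 sequenced plants, and whether they are fixed in either species was not measured.

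The progeny did not follow the prediction at most of these SNPs. Of 141140 progeny calls, 47438 were heterozygous (33.6%), 49600 were homozygous for the Pa base (35.1%) and 44102 were homozygous for the Pe base (31.2%). Per SNP the heterozygous share had a median of 27.0%, with quartiles of 9.49% and 48.8% and a range of 0% to 98.9%. At 0 of the 1739 SNPs were all called progeny heterozygous, at 66 (3.80%) at least 90% were, and at 139 (7.99%) none was. Both homozygotes occurred at 1707 SNPs (98.2%). The label of a fixed difference is thus not borne out by the progeny calls at most members, and the SNPs are called here by the parents' calls only.

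The most frequent class was the heterozygote at 569 SNPs, the Pa homozygote at 639 and the Pe homozygote at 506, and 2 classes tied at 25. The heterozygote was the least frequent class at 720 SNPs (41.4%). At 249 SNPs (14.3%) fewer than 10% of progeny were heterozygous and each homozygote held at least 30%, and at 36 SNPs a single homozygote held at least 90%. At 95 SNPs the heterozygote lay between 40% and 60% and 1 homozygote was under 5%. Between 72 and 90 progeny were called per SNP (median 81), which gives a median half-width of 8.71 percentage points for the 95% Wilson interval of a share. These intervals cover the number of plants only and not errors of the calls.

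**Figure D1:**
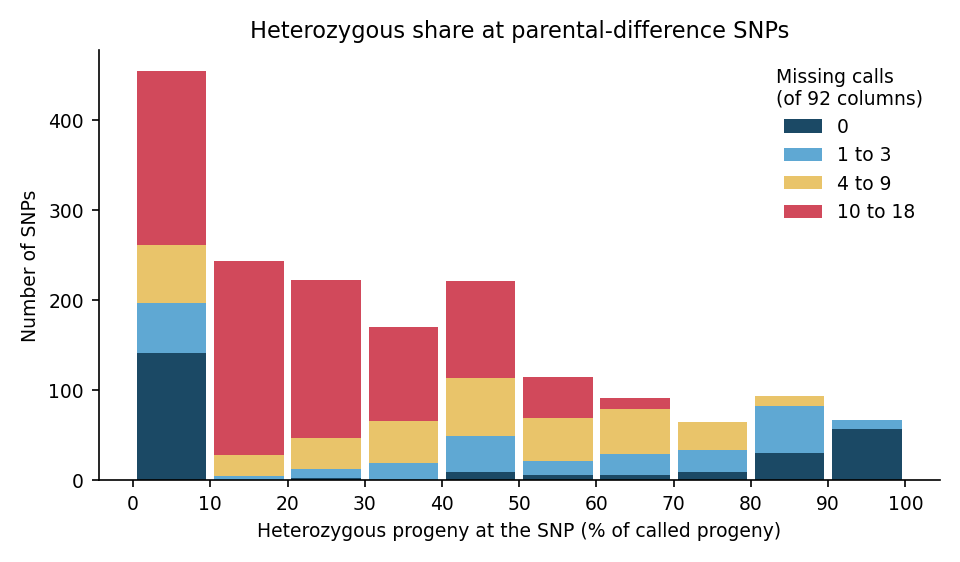
Number of parental-difference SNPs by the percent of called progeny that were heterozygous, in steps of 10%, with colors for the number of missing calls among 92 columns. The first bar holds 455 of 1739 SNPs and the last 66, and SNPs without a missing call lie mostly at the 2 ends.

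Named positions show both ends of this range. A SNP's name holds its chromosome and position, and no gene was assigned to any of them, since no source used here names the build. S7_20626870 (chromosome 7, position 20626870) was G in Pa and A in Pe. Of 90 progeny, 88 were heterozygous, 1 was homozygous for G and 1 for A (97.8%, Wilson interval 92.3% to 99.4%). At S1_833923 (C in Pa, G in Pe), S1_66384272 (A, C), S3_11669976 (G, C) and S16_7977573 (A, G), 87 of 90 progeny were heterozygous at each. These 5 SNPs met the prediction in all but 2 or 3 plants.

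At the other end, S1_37611489 (chromosome 1, position 37611489) was T in Pa and C in Pe, and 40 progeny were homozygous for T, 50 for C and 0 heterozygous, which allows a share of up to 4.09% by the Wilson interval. S1_145188323 (T, G) had 41 progeny of the Pa type and 49 of the Pe type, and S1_169638895 (G, C) had 38 and 52, again with 0 heterozygous. S1_30322197 (A, G) had 30 of the Pa type and 60 of the Pe type. S1_146661246 (A, T) had 86 of the Pa type and 4 of the Pe type. All 10 SNPs named so far had a call in every column of the imputed table. The last 5 are a choice among many ties, taken by chromosome and position: of the 139 SNPs with 0 heterozygotes, which lay on 16 chromosomes, 82 had no missing call.

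SNPs without any missing call were split in this way as a group. Of 258 such SNPs, 141 had under 10% heterozygous progeny, 87 had at least 80% and 30 lay between. Kept at 1 SNP per 1 kb, these were 78 SNPs with few and 58 with many heterozygotes. The 258 SNPs lay on 16 chromosomes, and they held 57 of the 66 SNPs with at least 90% heterozygotes and 82 of the 139 SNPs with none. In the 141 SNPs with few heterozygotes, 6964 homozygous calls were of the Pa type and 5640 of the Pe type.

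Among SNPs with missing calls the heterozygous share was lower where more calls were missing. The median was 48.9% at the 254 SNPs with 1 to 3 missing calls, 44.0% at the 372 with 4 to 9 and 21.3% at the 855 with 10 to 18, against 2.22% at those with 0. SNPs with 1 parent heterozygous fell from 43.3% without missing calls to 13.4% with 10 to 18, and those with both parents homozygous for 1 base went from 0% to 8.33%. At the limit of the rule, the 119 SNPs with 18 missing calls had a median of 16.7% and the 127 with 19, just outside, had 16.9%. The 17059 parental-difference SNPs above the limit had a median of 5.17%. The part of missing calls, or of the authors' imputation, in these shares was not tested.

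**Figure D2:**
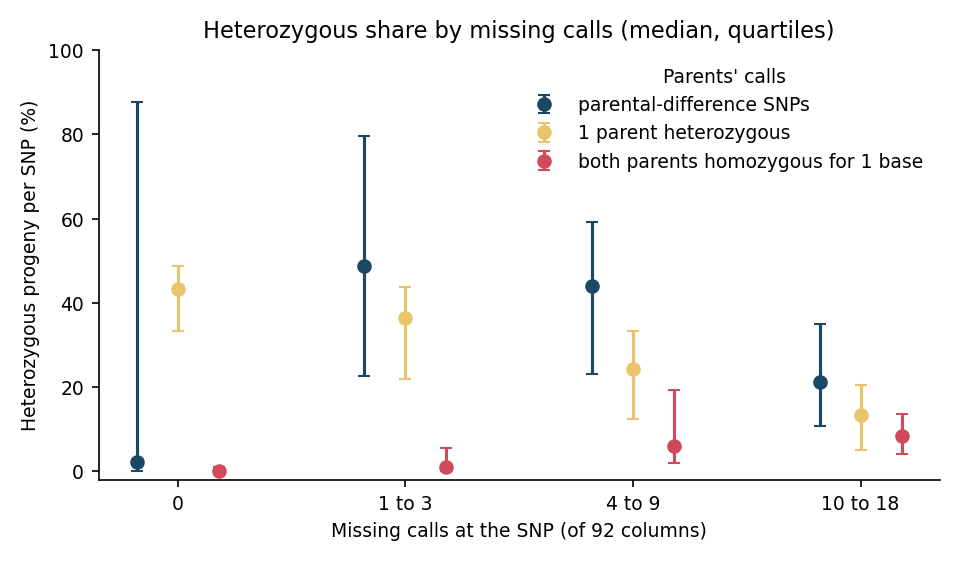
Median heterozygous percent per SNP (points) with quartiles (bars), by the number of missing calls, for 3 classes of parental calls. Parental-difference SNPs without a missing call have a median of 2.22% but an upper quartile of 87.8%, whereas the 3 classes come closest together at 10 to 18 missing calls.

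SNPs at most 100 bp apart mostly gave the same calls. The 1739 SNPs formed 1049 clusters with neighbors at most 100 bp apart, of which 613 held 1 SNP and the largest held 8. In 690 neighboring pairs of this kind, 92.9% of 55724 calls were the same class at both SNPs, and the median difference in heterozygous share was 0 percentage points. This share counts heterozygous and homozygous calls together, and imputed calls could not be set apart. Some neighbors differed, such as S1_142701858 with 53 progeny of the Pa type and 14 of the Pe type, and S1_142701866 with 16 and 52. Counts of SNPs below overstate the number of independent places, and 938 SNPs were left at 1 per 1 kb, with a median of 360195 bp between neighbors.

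Plants are the replicates of the cross, and each was low in heterozygotes. The share per plant was 33.3% ± 7.16 (SD, n = 90 progeny) and ranged from 13.9% to 51.7%, with a median of 33.9%. PaPe35 was lowest, with 185 heterozygous calls of 1333 (13.9%, Wilson interval 12.1% to 15.8%), followed by PaPe81 (18.03%) and PaPe32 (18.2%). PaPe68 was highest, with 856 of 1657 (51.7%, interval 49.3% to 54.1%), after PaPe6 (46.4%) and PaPe62 (46.2%). No plant came near the 100% that the parents' calls predict. The Wilson intervals take SNPs of 1 fragment as independent and are too narrow.

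The 30 progeny with few calls over all SNPs had a share of 35.4% ± 7.06 (SD) and the other 60 had 32.2% ± 7.02. Their ranges, 21.4% to 51.7% and 13.9% to 46.4%, overlapped in part. The difference of 3.18 percentage points gave p = 0.0474 in a two-sided permutation test, and an adjusted p of 0.0991 over the 5 measures compared between these sets. It depended on the limit on missing calls, with -0.710 points (p = 0.649) at 10% of columns and 5.53 points (p = 0.00029, permutation tests) at 30%.

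Within each set, plants with more missing calls at these SNPs had lower heterozygous shares. In the 60 well-called progeny, Pearson's r reached -0.761 and Spearman's rho reached -0.757 (permutation test, p = 1e-05 for both, adjusted p = 1.5e-05 and 1.2e-05 over 6 relations). In the 30 with few calls r was -0.927 and rho was -0.945 (permutation p = 1e-05 for each, adjusted p = 1.5e-05 and 1.2e-05). Without the 2 plants farthest from the median, r was -0.698 and -0.925. PaPe35, the lowest plant, had 23.3% of calls missing at these SNPs and PaPe62 had 0.403%. The share also followed the plant's share at SNPs with 1 parent heterozygous, with r of 0.953 and rho of 0.928 in the 60 plants and 0.814 and 0.805 in the 30 (permutation p = 1e-05 for each, adjusted p = 1.5e-05 and 1.2e-05), and r of 0.942 and 0.802 without 2 plants. Plants low at parental-difference SNPs were thus low at other SNPs too.

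Against missing calls over all SNPs the 2 measures of correlation disagreed. In the 60 plants r was 0.289 (permutation p = 0.0246, adjusted p = 0.0296) and rho was -0.098 (permutation p = 0.455). In the 30 plants r was -0.219 (permutation p = 0.251) and rho was -0.915 (permutation p = 1e-05, adjusted p = 1.2e-05). Without the 2 plants farthest from the median, r moved to 0.165 and -0.951, so both Pearson values rest on those plants.

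**Figure D3:**
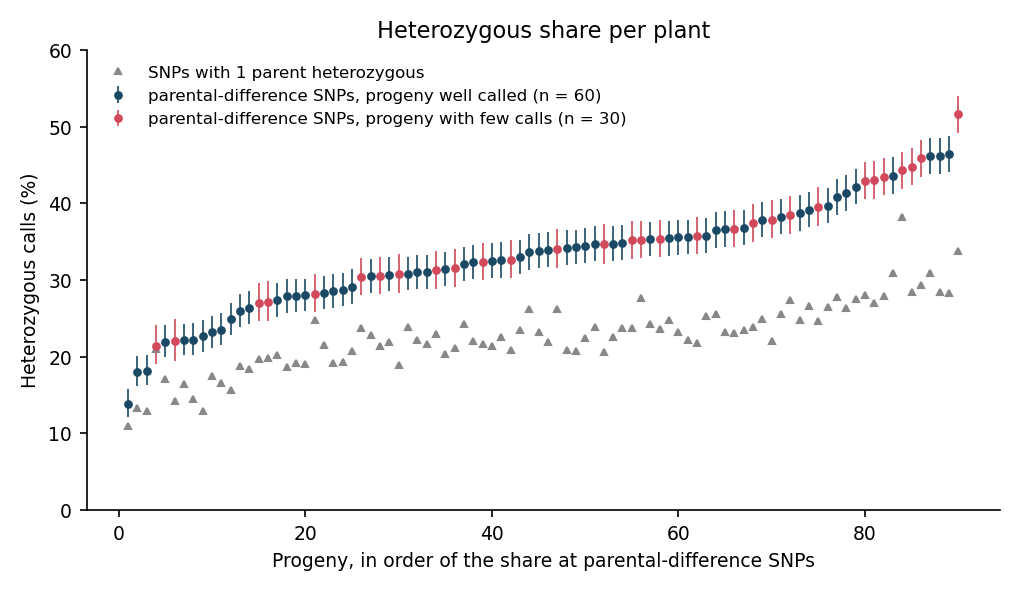
Percent of heterozygous calls in each of 90 progeny at parental-difference SNPs (circles with 95% Wilson intervals, colored by the share of missing calls over all SNPs) and at SNPs with 1 parent heterozygous (triangles). Plants run from 13.9% to 51.7%, and in every plant the circle lies above the triangle.

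The parents' calls ordered the progeny in part. If the parents are homozygous for different bases, more heterozygotes are predicted than with 1 or both parents heterozygous. None are predicted where both are homozygous for the same base. The heterozygous share per plant was 33.3% ± 7.16 (SD, n = 90) at parental-difference SNPs, 22.7% ± 4.57 with 1 parent heterozygous and 7.86% ± 3.48 with the same base in both. Within plants, parental-difference SNPs exceeded SNPs with 1 parent heterozygous by 10.6 ± 3.56 points and same-base SNPs by 25.4 ± 5.02 points, each in 90 of 90 plants (two-sided sign-flip permutation tests over plants, p = 1e-05, adjusted p = 1.5e-05 for each over 3 classes). The excess was 10.3 and 24.9 points in the 60 well-called progeny and 11.1 and 26.4 points in the 30 with few calls. At SNPs without a missing call the first difference turned to -1.93 points, opposite to the prediction (adjusted p = 3e-05, permutation test).

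Against the 15 SNPs with both parents heterozygous (36.2% ± 14.0) the order was opposite to the prediction. The difference was -2.91 ± 12.6 points, with parental-difference SNPs higher in 38 of 90 plants (adjusted p = 0.0313, permutation test). It was -4.05 points in the 60 well-called progeny (adjusted p = 0.00932, permutation test). The call was lost in the 30 plants with few calls (-0.630 points, adjusted p = 0.809, permutation test) and rests on few SNPs. The difference was -13.8 points with missing calls in at most 30% of columns (adjusted p = 1e-05) and -13.5 at SNPs without a missing call (adjusted p = 0.0005, permutation tests). Calls allowed by the parents made up 33.3% ± 7.16 at parental-difference SNPs, 82.2% ± 1.92 with 1 parent heterozygous and 71.7% ± 3.90 with the same base in both parents. The number of allowed classes differs between these sets of SNPs, so these 3 shares are a description. Rare alleles were filtered out, with a lowest minor allele frequency of 0.05. A SNP with the same base in both parents was thus kept only where progeny carried the other base. The part of this filter in the heterozygous and allowed shares of that class was not tested.

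Homozygous calls favored the Pa base slightly over the whole set. The share of Pe homozygotes among homozygous calls was 47.0% ± 2.01 (SD, n = 90) per plant, and it lay below 50% in 85 plants and above in 5. The mean distance from 50% was -2.97 points (two-sided sign-flip permutation test, p = 1e-05, the lowest value that 100000 resamples allow). The test asks whether plants share the shift at these SNPs, and it does not sample other SNPs. The distance was -2.69 points in the 60 well-called progeny and -3.54 in the 30 with few calls. The lowest share was in PaPe68, with 482 Pa and 319 Pe homozygotes (39.8%), and the highest in PaPe74, with 579 and 625 (51.9%). Counting every allele, 48.0% ± 1.29 were of the Pe type. Pooled over plants, the Pe share was 43.1% at SNPs without a missing call, 42.5% with 1 to 3, 44.0% with 4 to 9 and 50.5% with 10 to 18. It was 51.8% at the 17059 SNPs above the limit on missing calls.

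Single SNPs were skewed in both directions. An exact two-sided binomial test of the 2 homozygotes against 1:1, adjusted over all SNPs of the table by the Benjamini-Hochberg method, called 918 of the 1739 SNPs (52.8%). Over all SNPs with 2 base alleles 55.9% were called, and over the other SNPs within the same limits 78.3%, so the count over parental-difference SNPs was close to that of the whole table. The whole table also holds other classes of parental calls and SNPs with fewer called progeny, so these shares come from unlike sets. In direction, 515 had more Pa homozygotes (29.6%) and 403 more Pe homozygotes (23.2%), against 17.6% and 21.3% of all parental-difference SNPs of any number of missing calls. Kept at 1 per 1 kb, the counts were 284 and 210 of 938. One homozygote was over 5 times the other at 254 SNPs for Pa and at 195 for Pe.

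The most skewed SNPs lacked a homozygote almost entirely. S5_28009806 (chromosome 5, position 28009806) was A in Pa and G in Pe, and 80 progeny were homozygous for G, 7 heterozygous and 0 homozygous for A (adjusted p = 2.5e-20, exact binomial test). S1_181426444 (C in Pa, G in Pe) had 72 of the Pe type and 15 heterozygous, and S4_52739132 (T, C) had 70 and 19, both with 0 of the Pa type. S16_12706750 (G, A) had 66 of the Pe type and 1 of the Pa type, and S3_18818116 (C, G) had 83 and 6. In the other direction, S7_2662594 (chromosome 7, position 2662594) was C in Pa and T in Pe, with 85 progeny homozygous for C, 2 heterozygous and 3 homozygous for T (adjusted p = 1e-18, exact binomial test). S9_23096296 (C, A) had 70 of the Pa type and 12 heterozygous, and S5_33718373 (T, G) had 68 and 20, both with 0 of the Pe type. S5_42450123 (G, A) had the same 86 to 4 split as S1_146661246 above. In all 10 SNPs most progeny carried the genotype of 1 parent.

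Of the SNPs that the study associated with flower color, 2 were among the 1739. S5_43867748, on chromosome 5, T in Pa and A in Pe, had equal numbers of both homozygotes, 41 each, and 0 heterozygotes. S5_23606179, on the same chromosome, A in Pa and T in Pe, had 29 heterozygotes of 81 (35.8%), 44 of the Pa type and 8 of the Pe type (adjusted p = 1.5e-06, exact binomial test).

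The Pe share also differed with the bases of the SNP, which were split by whether the G or C was in Pa or in Pe. At the 744 SNPs with A or T in Pa and G or C in Pe, the Pe share of homozygous calls was 50.7% ± 2.65 (SD, n = 90). At the 644 SNPs with G or C in Pa and A or T in Pe, it was 42.2% ± 2.88. With both sets weighted equally, 54.2% ± 1.63 of homozygous calls carried G or C, above 50% in 90 of 90 plants (4.22 points, two-sided sign-flip permutation test, p = 1e-05). This test, too, asks whether plants share the excess at these SNPs and does not sample other SNPs. The excess was 4.50 points in the 60 well-called progeny and 3.65 in the 30 with few calls. Both sets of SNPs had a median of 9 missing calls. Where the choice between G or C and A or T does not arise, the Pe share was 48.6% ± 4.95 at the 166 A/T SNPs. At the 185 C/G SNPs it was 48.5% ± 4.91. The A/T SNPs differed by direction, with 45.0% at the 81 with A in Pa and 52.0% at the 85 with T in Pa. At C/G SNPs the shares were 48.9% with C in Pa and 48.2% with G in Pa. The part of such differences between sets of SNPs in the excess of G or C was not tested.

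Transitions made up 980 of the 1739 SNPs (56.4%, Wilson interval 54.0% to 58.7%) and transversions 759, or 1.29 transitions per transversion. The transition share was 58.9% (56.9% to 60.9%) at the other SNPs within the limits and 60.5% over all 114349 SNPs with 2 base alleles. SNPs of 1 fragment are not independent, so these intervals are too narrow, and at 1 SNP per 1 kb the share was 55.1% (51.9% to 58.3%). A/G and C/T were near equal, with 488 and 492 SNPs. The transversions were 219 G/T, 189 A/C, 185 C/G and 166 A/T. By direction, A in Pa with G in Pe was most frequent (266 SNPs) and A in Pa with T in Pe least (81). Pe carried the G or C at 744 SNPs and Pa at 644, and at 1 per 1 kb at 399 and 328.

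Transitions and transversions had similar heterozygous shares over the whole set. The share was 33.3% ± 7.21 (SD, n = 90) at transitions and 33.2% ± 7.23 at transversions, a difference of 0.117 points with transitions higher in 47 of 90 plants (two-sided sign-flip permutation test, p = 0.568). This difference was not stable, since it was -1.60 points at 1 SNP per 1 kb (p = 1e-05) and 1.45 points with chromosome 2 included (p = 1e-05, permutation tests). Among the 12 directed types the mean share ran from 30.5% for C in Pa with T in Pe to 37.8% for A in Pa with C in Pe. With A or T in Pa and G or C in Pe it was 35.0% ± 7.02, and with the reverse 31.6% ± 7.52. Differences among these types were not tested.

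The chromosomes differed in the heterozygous share. Each chromosome was compared with the others within plants (two-sided sign-flip permutation tests, adjusted over 18 chromosomes), and 8 were higher and 6 lower. Chromosome 17 was lowest, with 17.7% ± 10.2 (SD between plants) over 40 SNPs, and 6 of 90 plants were higher there than on the others (mean difference -15.9 points, adjusted p = 1.6e-05, permutation test). Chromosome 11 had 25.4% ± 12.1 over 34 SNPs and chromosome 1 had 28.8% ± 5.88 over 444 SNPs. Chromosomes 12 (42.8% ± 10.1, 63 SNPs), 16 (42.7% ± 10.4, 81 SNPs), 3 (41.3% ± 10.5, 105 SNPs) and 6 (40.1% ± 9.49, 58 SNPs) were high, followed by chromosomes 15 (38.7% ± 12.2) and 14 (38.0% ± 9.54). These 9 chromosomes kept their direction and their call under all the other settings that were tested. The tests ask whether plants share the difference at these SNPs, and they do not sample other SNPs of a chromosome.

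For the remaining chromosomes the call or the direction changed with the SNPs used. Chromosome 5 (276 SNPs, 34.2% ± 8.31) was 1.09 points above the others, and at 1 SNP per 1 kb it was at -3.46 points (adjusted p = 2e-05, permutation test). Chromosomes 4 (29.4%), 8 (31.2%) and 13 (28.3%) were lower in the main comparison. With missing calls in at most 10% of columns, chromosome 13 was higher by 20.2 points (adjusted p = 1.5e-05), whereas chromosomes 4 and 8, at 1.81 and 1.11 points, did not pass (adjusted p = 0.060 and 0.224, permutation tests). Chromosomes 7, 9, 10 and 18 did not pass the test. The 4 SNPs of chromosome 19 lay within 1 kb, with 59.4% ± 38.9 in 88 plants, and describe that stretch only. Their shares per SNP ran from 33.7% to 70.4%. Median missing calls per SNP ranged from 4.5 on chromosome 18 to 14 on chromosomes 11 and 13, with 10 on chromosome 17 and 9 on chromosome 12, and their part in these differences was not tested.

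The parent favored by homozygous calls at these SNPs also changed between chromosomes. Pa was favored on 6 chromosomes and Pe on 5, and 7 did not pass the test (two-sided sign-flip permutation tests over plants, adjusted over 18 chromosomes). The Pe share was 39.1% ± 6.68 (SD, n = 90) on chromosome 8, with 4587 Pa and 2951 Pe homozygous calls, and it lay below 50% in 86 plants. It was 39.96% ± 13.3 on chromosome 17, 42.4% ± 12.5 on chromosome 9 and 44.4% ± 3.64 on chromosome 1, where 87 plants lay below 50%. Pe was favored on chromosome 18, at 63.0% ± 15.4 with 756 Pa and 1304 Pe homozygous calls, and on chromosomes 10 (57.6% ± 14.1), 13 (56.3% ± 17.3) and 3 (55.4% ± 8.15). Adjusted p was 2e-05 for each of these except chromosome 13 (0.0016, permutation tests). Smaller shifts toward Pa passed on chromosomes 5 (46.1%) and 7 (47.0%, adjusted p = 0.0049, permutation test), and the single stretch on chromosome 19 was at 84.2% Pe. These tests, too, ask whether plants share the shift at these SNPs, and they do not sample other SNPs of a chromosome. At 1 SNP per 1 kb, chromosomes 10, 13, 17 and 18 held 16, 13, 16 and 17 SNPs. The Pe share per chromosome was not recomputed with other sets of SNPs.

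**Figure D4:**
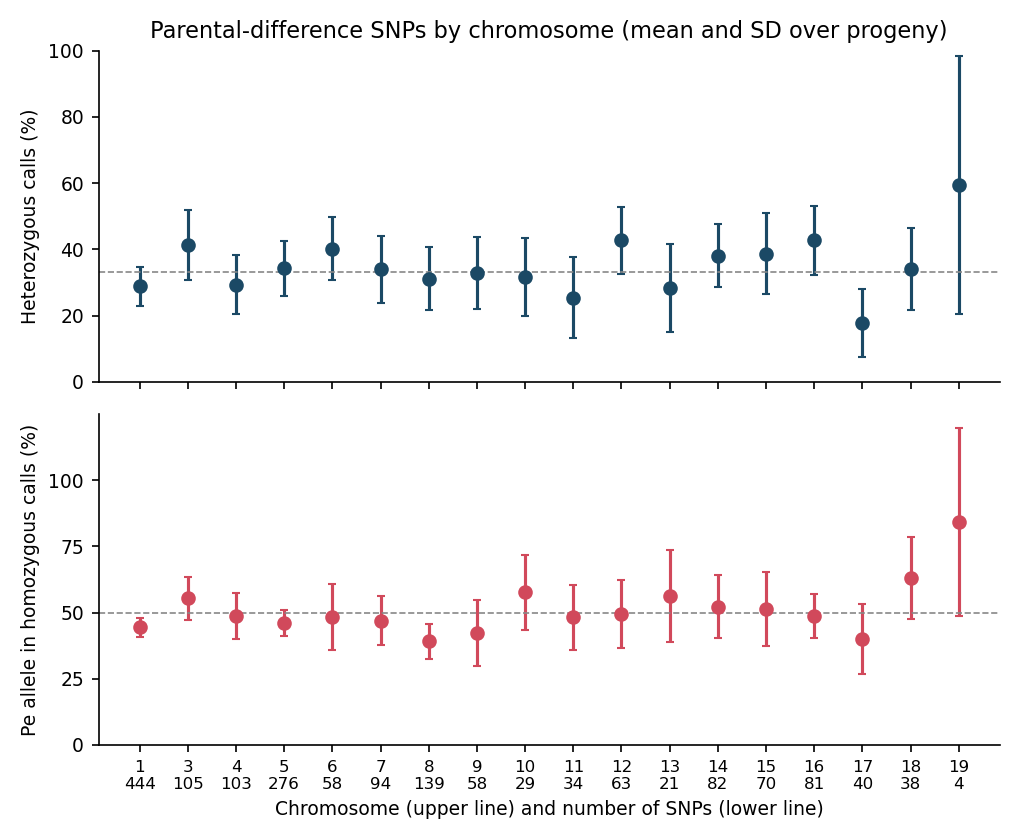
Mean over progeny (points) and SD (bars) of the heterozygous percent (upper panel, dashed line at the mean over all SNPs, 33.3%) and of the Pe percent of homozygous calls (lower panel, dashed line at 50%) on each chromosome, with the number of SNPs under each chromosome. Chromosome 17 is lowest in heterozygotes with 17.7%, and in the lower panel the means run from 39.1% on chromosome 8 to 63.0% on chromosome 18, with the single stretch of chromosome 19 above them at 84.2%.

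Since every SNP has a Pa and a Pe allele, the dosage of Pe alleles can be compared between SNPs with its sign. The cross predicts 1 Pe allele in every F1 plant at these SNPs, so it predicts no variation in dosage and no sign of r. The values of r describe the calls only. For 1011 pairs up to 0.1 kb apart the mean r was 0.838 and the mean r2 was 0.815, and all 818 pairs with r2 over 0.5 were positive. From 0.1 to 1 kb the mean r was 0.107 over 351 pairs. Beyond 1 kb the mean r was near 0, whereas the mean r2 was higher than between chromosomes up to 10 Mb and not beyond (0.0146 over 10 Mb). From 100 kb to 1 Mb (5535 pairs) the mean r was 0.0025 but the mean r2 was 0.0366, against 0.0148 between SNPs of different chromosomes. Of the 32 pairs with r2 over 0.5 at this distance, 20 were positive and 12 negative, and from 1 to 10 Mb 15 were positive and 16 negative. These values are descriptions over pairs that share plants and SNPs. In the 60 well-called progeny the mean r2 was 0.0401 from 100 kb to 1 Mb and 0.0201 between chromosomes.

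Single pairs were chosen after their values were seen, as the most positive and the most negative r. This was done for pairs over 100 kb apart on 1 chromosome and for pairs between chromosomes. That both signs appear was therefore fixed by the choice. Between chromosomes, 15 of 1332388 pairs had r2 over 0.5 in all progeny. S1_223969265 (A in Pa, G in Pe) and S1_224231437 (C, T) are 262172 bp apart, with r of 0.799 in 87 progeny. Of these, 36 were of the Pe type at both, 2 of the Pa type at both, 8 of the Pe type at the first and the Pa type at the second, and 0 the reverse. The other 41 were heterozygous at 1 SNP of the pair. S1_170951537 (C, T) and S1_173417246 (C, A) are 2465709 bp apart, with r of -0.821 in 86 progeny. There 35 were of the Pe type at the first and the Pa type at the second, 10 the reverse, 2 of the Pa type at both and 0 of the Pe type at both. The other 39 were heterozygous at 1 SNP of the pair. Between chromosomes, S3_10007180 (G, A) and S11_4152596 (T, A) had r of -0.892 in 81 progeny. Of these, 46 were Pa then Pe, 30 Pe then Pa, 3 of the Pa type at both, 1 of the Pe type at both and 1 heterozygous at 1 SNP. S1_87951545 (A, T) and S9_572185 (A, T) had r of 0.829 in 87 progeny, 33 of the Pa type at both, 46 heterozygous at both and 8 heterozygous at 1 SNP.

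**Figure D5:**
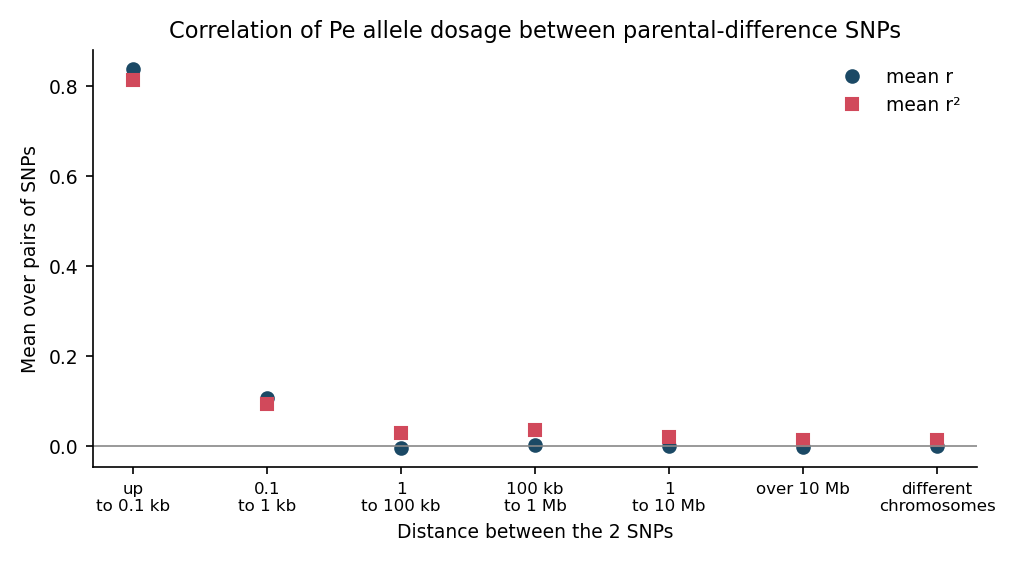
Mean correlation r (circles) and mean r2 (squares) of Pe allele dosage over pairs of parental-difference SNPs, by the distance between them, in 90 progeny. Both are above 0.8 up to 0.1 kb, and beyond 1 kb mean r lies near 0 while mean r2 is 0.0366 from 100 kb to 1 Mb and 0.0148 between chromosomes.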

How the data were processed

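The authors sequenced the libraries single-end, called genotypes with the TASSEL-GBS pipeline and Bowtie 2 at default settings, and deposited 1 table of genotype letters. By its name, genotypes were imputed from nearest neighbors and rare alleles were filtered out, and which calls were imputed is unknown. The letters have no scale, and the table gives no read depth. All 92 plant columns were used, and the number of columns of unknown identity was 0.

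Homozygous letters were compared with those of Pa and Pe, and parents were left out of all progeny values. Shares per plant were tested with 100000 sign flips or permutations, which leave p at least 1e-05. Sign flips ask whether plants share a difference at the SNPs used, and they do not sample other SNPs. Intervals are 95% Wilson intervals. An r between SNPs needed at least 20 plants.

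SNPs named are, at 1 per 1 kb, the 5 with the highest and lowest shares among those called in at least 80 progeny, the 5 most skewed in each direction, and members associated with a trait. The pairs of SNPs were chosen later, as were the tests of G or C, of the Pe share per chromosome and of relations across plants. Members and tests were chosen with earlier results of these data known. Libraries could not be compared, since the table merges them. The steps were tested on simulated crosses of independent SNPs with missing calls placed at random. Those crosses had no linkage, imputation or plants with few calls, so the test does not cover these traits of the table. Python 3.11.15, numpy 2.4.6, scipy 1.17.1, pandas 2.3.3 and matplotlib 3.10.9 were used.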

Additional observations from a re-analysis of the deposited data

Results flagged for a closer look

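The table also has entries on a label 20, which is none of the 19 chromosomes and was used in no comparison above. At 188 SNPs with this label, Pa and Pe were homozygous for different bases within the same limit on missing calls. Of 14950 progeny calls there, 4615 were heterozygous (30.9%, Wilson 95% interval 30.1% to 31.6%), 5377 were of the Pa type and 4958 of the Pe type. It is given here because these entries carry heterozygous calls and lie outside the data compared above. SNPs of 1 fragment and calls of 1 plant are not independent, so the interval is too narrow, and no test was made.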

How the results depend on the processing

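No paired analysis was possible because plate numbers belong to libraries that the table merges, and each plant has 1 column. Alternatives with each chromosome left out, and with SNPs without a missing call only, were added later, as was the share of G or C. The number of SNPs was 884 with missing calls in at most 10% of columns, 938 at 1 per 1 kb and 3386 with chromosome 2. The limit of 10% moved the median share per SNP to 45.0% and the mean per plant to 41.9%. At SNPs without a missing call the median was 2.22% and the difference from SNPs with 1 parent heterozygous was -1.93 points. The Pe share stayed at -6.94 to -1.99 points from 50%, and without each chromosome in turn at -3.45 to -2.0005. The excess of G or C stayed at 3.65 to 7.76 points. Unequal homozygotes were called at 19.4% of SNPs in the 30 plants with few calls, where fewer plants were tested.

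The difference from SNPs with both parents heterozygous was 1.11 points at the limit of 10%, -2.05 with minor allele frequency of at least 0.1, -2.07 without A/T and C/G SNPs and -0.630 in plants with few calls, and passed in none of these. It passed at -13.8 points with the limit at 30% and at -13.5 at SNPs without a missing call. Transitions minus transversions was -0.235 points at the limit of 10%, 0.590 at 30% (p = 0.00093, permutation test), -1.60 at 1 per 1 kb, -0.103 with minor allele frequency of at least 0.1, -0.317 without A/T and C/G SNPs and 1.45 with chromosome 2. Plants with few calls minus the others was -0.710 points at the limit of 10%, 5.53 at 30% (p = 0.00029, permutation test), 2.90 without A/T and C/G SNPs and 1.79 with chromosome 2. Leaving out A/T and C/G SNPs, all transversions, raised the transition share to 70.6%.

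For single chromosomes, 18 of 180 alternatives turned the direction. At the limit of 10% these were chromosomes 4 (1.81 points), 8 (1.11), 10 (1.38), 13 (20.2) and 18 (-3.56). At 30% they were 7 (-0.755) and 9 (0.191). At 1 per 1 kb they were 4 (0.442), 5 (-3.46), 9 (1.47), 13 (0.224), 18 (-1.07) and 19 (-0.00925). Without A/T and C/G SNPs they were 10 (1.71) and 18 (-0.513), with chromosome 2 it was 9 (0.898), in plants with few calls 9 (0.294), and by the median over SNPs, which has no test, 5 (-0.926). The cause of these changes was not tested. Read depth is unknown, so no limit from depth could be given.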

Other observations

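Over the 938 parental-difference SNPs at 1 per 1 kb, 2 progeny had the same call at a median of 51.8% of the SNPs called in both, over 4005 pairs. PaPe6 and PaPe18 were most alike, with 61.6% of 839 SNPs. PaPe63 and PaPe89, with 59.1% of 782 SNPs, ranked at 22 of the 4005 pairs, and PaPe52 and PaPe76, with 56.3% of 892 SNPs, at 244. Without these 4 plants, the classes of parental calls, the overall Pe and G or C shares, the heterozygous share per chromosome and the difference between transitions and transversions kept their calls. The Pe share per chromosome and the relations across plants were not recomputed without them.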
